A study of Mus musculus with 2 samples.

Results

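The Z-disc is the plate at each end of the sarcomere, where actin filaments of opposite polarity are crosslinked and titin is anchored. It is also a hub for proteins that sense stretch and load, and several of these move between the sarcomere and the nucleus. 10 genes of this set were examined here in DNase-seq of mouse calf muscle. They were taken by name from the GENCODE mouse annotation, all 10 were found there, and they stand among 21938 protein-coding genes. Tcap, Myot, Ldb3 and Synpo2l encode proteins of the disc itself, and Des encodes the intermediate filament around it. Xirp1 and Xirp2 encode actin-binding repeat proteins, Csrp3 and Ankrd2 encode stretch-linked LIM and ankyrin repeat proteins, and Smyd1 encodes a muscle lysine methyltransferase needed for sarcomere assembly.

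DNase I cuts DNA that is not covered by nucleosomes, so a cluster of cuts, called as a peak, marks accessible chromatin. Within a peak, a short stretch with few cuts is called a footprint. The study holds 2 libraries from gastrocnemius tissue (the main muscle of the calf) of B6CASTF1/J females aged 2 months, a cross of C57BL/6J and CAST/EiJ. No genotype, treatment or second group is given, so both libraries form 1 group and no test between conditions was possible. The labels number them as biological replicates 1 and 2 with biosamples of their own and the same donor identifier. Whether they come from different animals could not be settled from the labels. Differences between animals and technical differences cannot be told apart here. Whole tissue was used, and in bulk tissue a weak signal in many nuclei and a strong signal in few cannot be told apart.

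Replicate 1 had 66984 peaks and replicate 2 had 258342, and the read depth behind them was not used here. Of the peaks of replicate 1, 76.8% overlapped a peak of replicate 2, against 20.2% in the other direction, and merging gave 49160 shared peaks. Promoter peaks in both libraries were found at all 7 skeletal muscle markers examined and at 1 of 5 heart markers, 3 of 6 smooth muscle and mural markers, 3 of 4 endothelial, 4 of 4 fibroblast, 0 of 4 macrophage, 0 of 2 satellite cell and 0 of 3 hepatocyte markers. Counted in replicate 2 alone, 2 of 5 heart, 6 of 6 smooth muscle and mural, 4 of 4 endothelial, 3 of 4 macrophage, 2 of 2 satellite cell and 1 of 3 hepatocyte markers had one. The part of these other cells in the peaks of the 10 genes was not tested.

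A peak was assigned to a gene when its midpoint lay in the gene body or within 10 kb of it. It was called a promoter peak within 1 kb of any annotated start of the gene, and distal when it was over 1 kb from every annotated start. The 6 sequences below are RefSeq promoters of 5 genes with accessible promoters and, for contrast, that of Csrp3, whose start had no shared peak. They run 5′ to 3′ on the gene's strand, from 250 bases before the start to 50 after it, on the C57BL/6J reference (GRCm38), and not on the CAST/EiJ allele that these animals also carry. Capitals mark matches to the consensus of MEF2 or of the SRF CArG box, to CAGCTG (the E-box bound by MYOD and MYOG) or to CATTCC (MCAT, bound by TEAD factors).
Des, chr1:75360042-75360341, + strand: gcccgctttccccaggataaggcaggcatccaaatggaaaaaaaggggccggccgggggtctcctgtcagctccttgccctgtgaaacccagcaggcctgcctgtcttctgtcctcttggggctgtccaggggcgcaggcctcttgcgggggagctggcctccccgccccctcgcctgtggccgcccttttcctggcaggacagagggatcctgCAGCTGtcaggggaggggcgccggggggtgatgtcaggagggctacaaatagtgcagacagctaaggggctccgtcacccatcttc
Ldb3, chr14:34588632-34588931, - strand: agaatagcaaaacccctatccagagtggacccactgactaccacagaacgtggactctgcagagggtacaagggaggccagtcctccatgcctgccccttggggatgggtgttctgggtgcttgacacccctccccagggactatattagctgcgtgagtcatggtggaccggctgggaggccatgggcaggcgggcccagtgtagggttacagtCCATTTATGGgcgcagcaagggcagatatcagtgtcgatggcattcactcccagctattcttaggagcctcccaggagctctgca
Synpo2l, inner start, chr14:20664525-20664824, - strand: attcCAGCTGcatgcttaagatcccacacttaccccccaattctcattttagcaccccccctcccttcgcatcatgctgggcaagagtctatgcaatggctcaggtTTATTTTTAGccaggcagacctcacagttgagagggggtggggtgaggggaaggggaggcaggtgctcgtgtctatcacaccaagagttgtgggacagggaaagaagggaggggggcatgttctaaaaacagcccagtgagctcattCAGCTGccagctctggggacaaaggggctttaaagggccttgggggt
Xirp2, chr2:67445752-67446051, + strand: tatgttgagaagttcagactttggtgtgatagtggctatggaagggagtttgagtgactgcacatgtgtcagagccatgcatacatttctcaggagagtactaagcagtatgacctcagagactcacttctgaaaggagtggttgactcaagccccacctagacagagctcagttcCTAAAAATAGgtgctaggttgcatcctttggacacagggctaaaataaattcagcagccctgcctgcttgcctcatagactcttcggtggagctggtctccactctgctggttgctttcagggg
Ankrd2, chr19:42035777-42036076, + strand: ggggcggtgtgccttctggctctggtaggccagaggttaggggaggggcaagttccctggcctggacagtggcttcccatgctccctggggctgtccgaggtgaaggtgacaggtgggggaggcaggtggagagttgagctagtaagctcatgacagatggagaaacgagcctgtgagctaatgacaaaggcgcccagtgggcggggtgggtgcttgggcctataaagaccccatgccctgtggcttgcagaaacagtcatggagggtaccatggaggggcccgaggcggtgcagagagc
Csrp3, chr7:48848002-48848301, - strand: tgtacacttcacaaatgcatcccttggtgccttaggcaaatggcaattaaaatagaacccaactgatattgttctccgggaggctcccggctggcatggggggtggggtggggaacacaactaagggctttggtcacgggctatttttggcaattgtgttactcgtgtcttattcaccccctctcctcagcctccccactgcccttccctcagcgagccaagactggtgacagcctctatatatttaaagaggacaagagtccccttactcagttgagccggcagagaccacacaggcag
In these letters Des had CAGCTG at bases -36 to -31, counted with the RefSeq start as 0. Ldb3 had a CArG match at -35 to -26 and Xirp2 a MEF2 match at -74 to -65. Synpo2l had a MEF2 match at -144 to -135 and CAGCTG at -246 to -241 and again at 3 to 8. Ankrd2 and Csrp3 held no match to these 4 consensus sequences in this window. Of the promoters not printed, that of Smyd1, which also overlaps a shared peak, held none either. The outer and more accessible start of Synpo2l, also not printed, held only a MEF2 match, at -109 to -100. Of 32851 RefSeq promoters of the same length, 3.19% held a MEF2 match, 1.63% a CArG match, 16.3% CAGCTG and 14.7% CATTCC. A match is a description of the letters and not evidence of binding.

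All 10 genes had a promoter peak in replicate 1 and in replicate 2. Of protein-coding genes 60.7% had one in replicate 1, 70.8% in replicate 2 and 60.0% in both. A shared promoter peak, with peaks of the libraries that overlapped each other, was present at 10 of 10 genes and at 59.5% of protein-coding genes. Counted only around the main start, that of the gene's lowest-numbered transcript, 10 of 10 genes had a peak in each library, as did 54.9% of protein-coding genes. A shared peak lay there at 9 of 10 genes, and Csrp3 was the exception, beside 54.5% of protein-coding genes. A distal shared peak was present at 9 of 10 genes, again without Csrp3, and at 38.3% of protein-coding genes. With the shorter of the authors' peak lists, Myot and Csrp3 lost the promoter call and 8 genes kept it. Those lists hold 39425 peaks in replicate 1 and 140649 in replicate 2. The share of all protein-coding genes called with them is not given here.

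In the windows of these genes, 528.032 kb in all, replicate 1 had 77 peaks and replicate 2 had 209. Of these, 66 of the 77 overlapped the other library (85.7%, exact Clopper-Pearson 95% interval 75.9 to 92.6%), and 66 of the 209 did (31.6%, 25.3 to 38.3%). These intervals cover counting error only, and neighbouring peaks are not independent. Merging left 60 shared peaks, of which 17 were at a promoter of the gene itself, 14 at the promoter of a neighbour and 29 distal. Of the distal ones, 12 lay in introns, 6 in coding exons, 7 downstream of the gene and 4 upstream. The windows therefore hold a good number of peaks at promoters of neighbours. The paragraphs on single genes name most of them. The counts of shared peaks per gene and per 10 kb, and the footprint and motif shares below, include them.

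**Figure D1:**
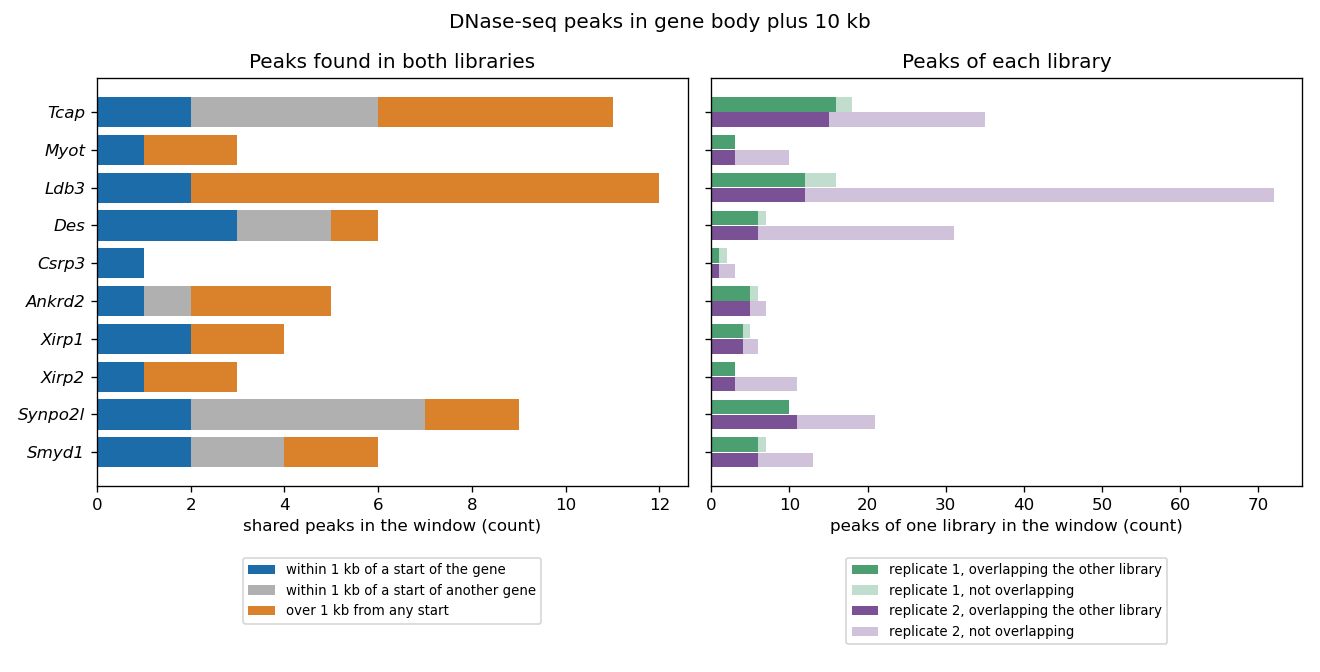
Bars give the number of peaks in each gene's window (gene body plus 10 kb), on the left the shared peaks by position and on the right the peaks of each library, dark where they overlap the other library. Ldb3 had the most shared peaks with 12, and replicate 2 had 60 further peaks there that replicate 1 lacked.

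Per length of window, the 10 genes had a median of 1.40 shared peaks per 10 kb, against 0.325 over all protein-coding genes. Per gene the medians were 5.5 and 2. Tcap stood at 5.20 per 10 kb, Synpo2l at 3.06 and Des at 2.12, while Csrp3 at 0.266 and Xirp2 at 0.298 lay under the median of all genes. The gene bodies alone held 28 of the 60 shared peaks, among them 10 in Ldb3, 6 in Smyd1, 4 in Synpo2l and 3 in Myot. For Ankrd2 and Xirp1 the body held 0, since their promoter peaks had midpoints upstream of the start. In Tcap, Des, Ankrd2, Xirp1 and Synpo2l most shared peaks thus lay in the flanks.

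**Figure D2:**
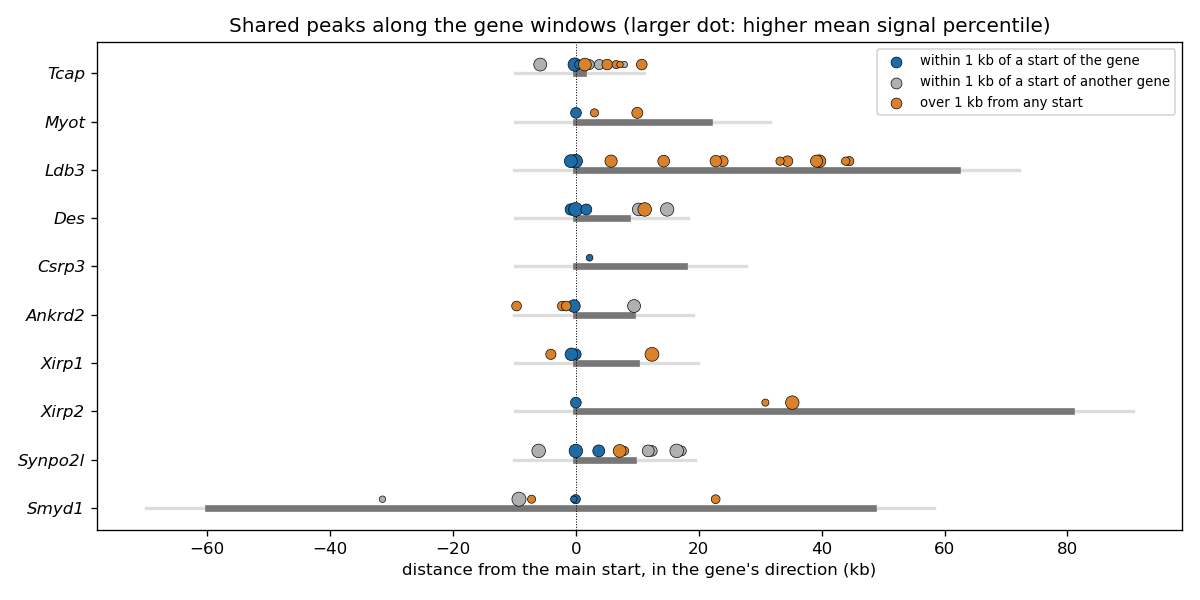
Each dot is a shared peak, placed by its distance in kb from the main start in the direction of the gene; thick bars are gene bodies and thin bars the flanks of 10 kb. Ldb3 and Xirp2 have distal peaks inside introns, while those of Tcap and Des lie downstream.

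Strength was read as a percentile, the percentage of peaks in the same library with a lower signal. This signal is the authors' own value for each peak, its scale is not stated, and it was ranked only within a list. By this measure the promoters were not among the strongest of the genome. The median of the 10 genes' strongest promoter peaks was at percentile 86.3 in replicate 1 and 93.7 in replicate 2, and that of all protein-coding genes with a promoter peak was at 87.7 and 96.1. Only 5 of the 10 genes in replicate 1 and 3 in replicate 2 (Des, Synpo2l and Ldb3) were above the median gene. Percentiles in replicate 2 were higher at 59 of the 60 shared peaks, as they were at 99.5% of all shared peaks. The list of replicate 2 is 3.86 times as long.

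The order of the promoters was only partly alike between the libraries. Des, Ldb3, Tcap and Synpo2l led in replicate 1, at percentiles 96.2, 94.0, 91.7 and 91.6. In replicate 2 Synpo2l, Des, Ldb3 and Ankrd2 led at 97.4, 97.1, 96.8 and 96.1, followed by Tcap at 95.5. The order among these 5 differed between the libraries, so it is not resolved. Csrp3 was lowest in both, at 24.8 and 80.2, and Smyd1 next to lowest in replicate 1 at 54.6 while Myot was in replicate 2 at 85.6. Xirp2 and Ankrd2 stood at 68.0 and 84.3 in replicate 1 and at 91.7 and 96.1 in replicate 2, and Xirp1 at 88.4 and 91.9.

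**Figure D3:**
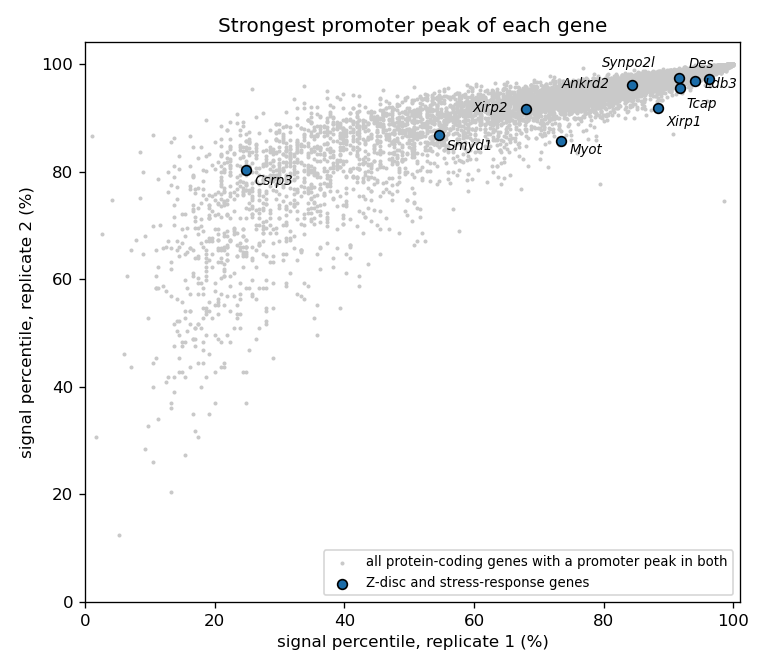
The signal percentile of each gene's strongest promoter peak is plotted for replicate 1 (x axis, %) against replicate 2 (y axis, %), with all protein-coding genes with a promoter peak in both as grey points. Csrp3 stands alone at the lower left of the 10 genes, at 24.8 and 80.2, and Des is farthest to the right.

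Most of these promoters were poor in CpG dinucleotides. In the 1 kb around the start, 9 of 10 genes had a ratio of observed to expected CpG below the median of protein-coding genes (0.552), with values from 0.122 for Myot to 0.323 for Xirp1. Des was the exception at 0.710. Of the 14614 protein-coding genes with a ratio no higher than that of Des, 43.1% had a promoter peak in both libraries. This group reaches above the median of 0.552, so it is not a background for the other 9 genes alone.

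A finer measure came from the authors' list of short segments whose cut rate passed a false discovery rate of 0.05. Within 1 kb of the main start, these segments covered 78.4% of bases at Tcap in replicate 1 and 88.9% in replicate 2. At Ldb3 they covered 43.4% and 100%, and at Des 41.8% and 100%. The promoters of Ldb3 and Des were thus wholly covered in the larger library, and Tcap was high in both. At Myot the shares were 9.05% and 11.8%, and at Csrp3 3.45% and 2.45%, the lowest of the 10 in both libraries. The medians over all protein-coding genes were 14.3% and 26.6%, which 8 of the 10 genes exceeded in replicate 1 and 5 in replicate 2.

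Tcap (chr11:98383811-98384953, + strand) encodes telethonin, which caps the amino end of titin in the disc. Its promoter peak, centred 205 bp upstream of the start, had a signal of 3.19 in replicate 1 and 3.81 in replicate 2. It carried 7 and 9 footprints, and 51 bp lay in footprints of both libraries. A weaker peak lay over a coding exon (signal 1.05 and 0.734). From there on, the window held a row of shared peaks across Pnmt and Pgap3. The widest of them, 1560 and 1440 bp, were each joined from several peaks of both libraries. In this row the distal peak centred 1.45 kb past the start, just beyond the end of the gene, was the strongest, at 2.38 and 3.56 (percentiles 87.3 and 95.1). Of the 11 shared peaks in the window, 4 were at promoters of Stard3, Pnmt or Pgap3.

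Myot (chr18:44334074-44355724, + strand) encodes myotilin, which binds alpha-actinin and filamin C and crosslinks actin. It had 3 shared peaks. The promoter peak lay 3 bp from the start with a signal of 1.29 and 1.26 (percentiles 73.5 and 85.6). A peak of similar strength lay in intron 4, 9.98 kb into the gene, at 1.36 and 1.45 (75 and 87.6). The last, over a coding exon, was weaker at 0.796 and 0.723. Each of the 3 carried footprints in both libraries, but at none did the footprints coincide at a single base. Replicate 1 had no other peak in this window and replicate 2 had 7 more.

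Ldb3 (chr14:34526603-34588682, - strand) encodes ZASP, also called cypher, a PDZ and LIM protein that binds alpha-actinin. It had the most shared peaks of the 10 genes, 2 at the promoter and 10 distal ones, and all 10 lay inside the gene, 8 in introns and 2 over coding exons. The promoter peak, 57 bp upstream of the main start, had a signal of 3.90 in replicate 1 and 5.12 in replicate 2, and it overlaps the promoter printed above with its CArG match. A companion 837 bp upstream stood at 2.58 and 3.13. The strongest distal peak was in intron 9, at 39.6 kb from the start (2.08 and 3.06, percentiles 84.9 and 94.3). The peak in intron 2 at 5.71 kb followed at 1.79 and 3.03, and then another in intron 9 at 39.2 kb, at 1.70 and 2.99. Of the peak in intron 2, 44 bp lay in footprints of both libraries, more than at any other Ldb3 peak. Replicate 2 had 72 peaks in this window against 16 in replicate 1, the widest gap among the 10 genes. The part of the larger list of replicate 2 in this gap was not tested.

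Synpo2l (chr14:20658946-20668354, - strand) encodes CHAP, a relative of synaptopodin found at the Z-disc. Both of its start regions were accessible in both libraries. At the outer start the signal was 3.17 and 5.93 (percentiles 91.6 and 97.4), and at the inner start, 3.71 kb further in, it was 1.72 and 2.27 (81.0 and 92.2). The outer start was thus the stronger in each library. A shared peak of 1600 bp, joined from 2 peaks of replicate 1 and 3 of replicate 2, was centred over a coding exon. Its strongest piece stood at 2.22 in replicate 1 and 4.39 in replicate 2. The whole stretch held 18 footprints in replicate 1 and 4 in replicate 2. Of the 9 shared peaks, 4 were at starts of Myoz1, a gene of another Z-disc protein just downstream, and the strongest of these reached 3.83 and 5.42. Another, at the promoter of Sec24c, reached 3.45 and 5.88.

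Des (chr1:75360329-75368579, + strand) encodes desmin, the intermediate filament protein that links neighbouring Z-discs. Its promoter peak was the strongest own promoter peak of the 10 genes in replicate 1, at a signal of 4.99 there and 5.58 in replicate 2 (percentiles 96.2 and 97.1). It lay 48 bp upstream of the main start. With 5 and 7 footprints and 77 bp in footprints of both libraries, it had the most such bases of all 60 shared peaks, and it covers the CAGCTG match printed above. Further promoter peaks lay 847 bp upstream (1.41 and 1.77) and at an alternative start 1.69 kb inside (1.25 and 1.64). Downstream, between Des and Speg, a gene of a muscle kinase, a distal peak at 11.2 kb reached 3.47 and 6.05 (92.7 and 97.4), more than the promoter in replicate 2. It lies in the body of the non-coding gene Gm15179, whose starts had peaks on either side, one of them shared with the start of Speg (3.14 and 5.59).

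Xirp1 (chr9:120013755-120023598, - strand) and Xirp2 (chr2:67446002-67526614, + strand) encode the Xin repeat proteins, which bind actin and gather at sites of muscle remodelling. Xirp1 had a peak 52 bp upstream of the start, at 1.29 and 1.5, and a stronger one 743 bp upstream, at 2.55 and 2.19. The strongest peak of its window lay 12.4 kb past the start, downstream of the gene, at 4.29 and 8.0 (percentiles 94.9 and 98.2). That peak lies within the annotated body of Cx3cr1, the fractalkine receptor gene of macrophages and microglia, which spans Xirp1 as well, and 52 bp of it were in footprints of both libraries. Of 4 macrophage markers, 0 had a promoter peak in replicate 1 and 3 had one in replicate 2, and the part of such cells in this peak was not tested. Xirp2 had 3 shared peaks in a window of 100.613 kb. Its promoter peak, 16 bp upstream of the start, had a signal of 1.11 and 2.13 and covers the MEF2 match printed above. The peak in intron 2, 35.2 kb into the gene, was about as strong as the leading promoters, at 3.28 and 6.14 (92.1 and 97.5), and exceeded the promoter in each library.

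For 3 genes the strongest distal shared peak is printed as the place where accessibility away from the start was highest. Each runs 5′ to 3′ on the gene's strand, on the C57BL/6J reference of GRCm38, over at most 300 bases around the peak's midpoint, and capitals mark the bases that lay in footprints of both libraries.
Xirp2, intron 2, chr2:67481081-67481340, + strand: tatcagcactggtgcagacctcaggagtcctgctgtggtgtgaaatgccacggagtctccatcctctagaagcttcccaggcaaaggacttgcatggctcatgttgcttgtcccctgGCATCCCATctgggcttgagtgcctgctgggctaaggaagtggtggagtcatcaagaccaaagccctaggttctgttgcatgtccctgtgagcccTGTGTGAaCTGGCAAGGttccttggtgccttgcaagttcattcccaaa
Des, downstream, chr1:75371361-75371660, + strand: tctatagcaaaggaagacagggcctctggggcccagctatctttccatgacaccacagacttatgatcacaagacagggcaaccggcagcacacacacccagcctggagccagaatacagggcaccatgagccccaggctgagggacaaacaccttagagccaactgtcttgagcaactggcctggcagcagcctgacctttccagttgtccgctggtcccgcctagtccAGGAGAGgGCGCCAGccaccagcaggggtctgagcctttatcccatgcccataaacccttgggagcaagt
Ldb3, intron 9, chr14:34548872-34549171, - strand: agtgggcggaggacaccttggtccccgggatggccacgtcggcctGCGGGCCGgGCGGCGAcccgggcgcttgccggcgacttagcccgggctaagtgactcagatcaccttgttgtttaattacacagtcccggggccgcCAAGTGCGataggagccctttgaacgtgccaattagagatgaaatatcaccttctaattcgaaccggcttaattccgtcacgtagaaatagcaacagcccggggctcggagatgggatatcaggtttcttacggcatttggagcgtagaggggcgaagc
In the Xirp2 peak 25 bases were in footprints of both libraries, in the Des peak 14 and in this stretch of Ldb3 23. None of the 3 stretches held CAGCTG or a MEF2 or CArG match, and that of Xirp2 held 1 match to CATTCC. The stretch of Ldb3 held 1 match to TGANTCA (AP-1), 1 to TCAGGTT (MEF3) and 2 to GGGCGG (SP/KLF), and that of Des held 2 to TGGAAA (NFAT).

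Csrp3 (chr7:48830398-48848033, - strand) encodes the muscle LIM protein, which binds at the Z-disc and can enter the nucleus. It had the fewest peaks of the 10 genes, 2 in replicate 1 and 3 in replicate 2, and its strongest promoter peak ranked lowest of the 10 in each library. The only shared peak lay in intron 1, 595 bp from an inner start, at a signal of 0.439 and 0.930. At the main start each library had a weak peak at a place of its own, 449 bp upstream in replicate 1 (0.416) and 48 bp upstream in replicate 2 (0.404), and these did not overlap. Csrp3 therefore counted as a gene with a promoter peak in both libraries, but the accessible places near its main start were not the same.

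Ankrd2 (chr19:42036000-42045110, + strand) encodes an ankyrin repeat protein that binds titin and responds to stretch. Its promoter peak, 337 bp upstream of the main start, had a signal of 2.01 and 4.30 (percentiles 84.3 and 96.1). It carried 2 footprints in replicate 1 and 7 in replicate 2, with no base in common. All 3 distal shared peaks lay upstream, inside the gene Ubtd1, between 1.58 and 9.67 kb from the start, with signals from 0.884 to 0.943 in replicate 1 and from 1.26 to 1.61 in replicate 2. The strongest peak of the window was at the promoter of Hoga1, just past the end of Ankrd2 (2.14 and 6.76).

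Smyd1 (chr6:71213940-71322233, - strand) methylates lysines and is needed for assembly of the sarcomere. Its annotated body is 108.294 kb long because some transcripts start far upstream, which places several peaks inside the gene that lie before the main start. At that start the shared peak had a signal of 0.814 and 1.37 (percentiles 54.6 and 86.8), and it carried no footprint in either library. A companion 352 bp upstream stood at 0.556 and 0.577, with a MEF2 match and CAGCTG near its midpoint. Distal peaks were weak too, at 0.679 and 0.947 7.2 kb upstream and at 0.767 and 1.14 in intron 2. By far the strongest peak of the window, at 5.04 and 9.53 (96.3 and 98.6), was the promoter of Krcc1 and Mir8112 inside the long annotation.

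**Figure D4:**
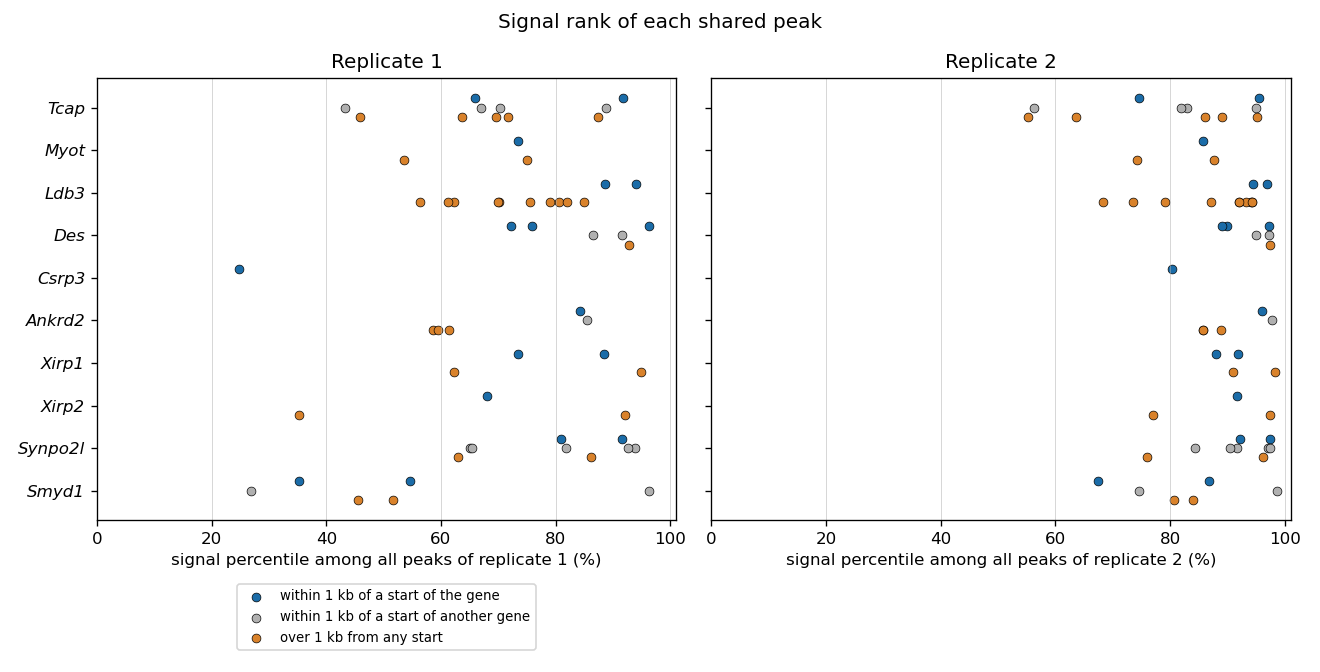
Each dot is 1 of the 60 shared peaks, placed by its signal percentile (%) among all peaks of replicate 1 (left) or replicate 2 (right) and coloured by position. For Xirp1, Xirp2 and, by a small margin, Myot a distal peak stands to the right of the gene's own promoter peaks in both libraries.

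Ranked by the mean percentile of both libraries, the strongest shared peak of the window was at the gene's own promoter for 4 (Tcap, Ldb3, Des and Csrp3), distal for 3 (Myot, Xirp1 and Xirp2) and at the promoter of a neighbour for 3 (Ankrd2, Synpo2l and Smyd1). In replicate 2 alone this changed for Des, whose distal peak was the strongest, and for Synpo2l, whose own promoter was. Own promoter peaks had median percentiles of 75.9 and 91.7 in the 2 libraries, neighbours' promoter peaks 83.7 and 93.2, and distal peaks 69.6 and 87.6. The ranges of the 3 kinds overlapped widely in both libraries, from 24.8 to 96.2 for own promoters and from 35.3 to 94.9 for distal peaks in replicate 1. Peaks found in 1 library only were weaker, with a median percentile of 32.7 in replicate 1 against 70.3 for those that overlapped, and of 57.3 against 89.0 in replicate 2.

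Footprints were called within 1 kb of a start of all 10 genes in both libraries, and of 58.7% of protein-coding genes. Since a footprint lies within a peak, this count is not independent of that of promoter peaks (10 of 10 genes, and 60.0% of protein-coding genes). Inside the shared peaks of the windows, 75 of 188 footprints of replicate 1 overlapped one of replicate 2 (39.9%, exact 95% interval 32.8 to 47.3%), and 77 of 197 did in the other direction (39.1%, 32.2 to 46.3%). After a move of 50 bp the shares were 20.7% and 24.4%. Over all shared peaks of the genome 50.8% and 45.9% overlapped. Bases in footprints of both libraries were present in 36 of the 60 shared peaks, beside 61.5% of all shared peaks.

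Consensus matches were sought on both strands in the 150 bp around the midpoint of each shared peak. CAGCTG was in 19 of the 60 peaks (31.7%, exact 95% interval 20.3 to 45.0%), against 19.2% of all shared peaks. By position, 31 peaks were at promoters, 17 at the gene's own and 14 at a neighbour's. These had it in 13 of 31 (41.9%, 24.5 to 60.9%), against 12.4% of all shared peaks within 1 kb of any start. Distal peaks had it in 6 of 29 (20.7%, 7.99 to 39.7%), against 24.7%. The promoter background was not matched for CpG content, in which most promoters of the 10 genes were poor. A MEF2 match was in 6 of 60 (10%, 3.76 to 20.5%), against 1.5% of all shared peaks. Those 6 were at the promoters of Xirp1, Xirp2, Smyd1 and Myoz1, 7.2 kb upstream of Smyd1 and in intron 9 of Ldb3. In 300 bp the MEF2 count was 10 of 60, against 2.96%, and CAGCTG was in 25 of 60 (41.7%, 29.1 to 55.1%), against 29.1%, a value inside that interval. The peaks of 1 window are neighbours and share sequence composition, so these intervals describe the peaks and test nothing.

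Other consensus sequences were closer to the background or below it, apart from the CArG box, whose share rests on 1 peak. GGGCGG, bound by SP and KLF factors, was in 9 of 60 (15.0%), against 25% of all shared peaks. At promoters, again of the gene or of a neighbour, it was in 6 of 31 (19.4%, exact 95% interval 7.45 to 37.5%), against 44.5%. In distal peaks it was in 3 of 29 (10.3%), against 9.40%. Here too the promoter background was not matched for CpG content. TGGAAA (NFAT) was in 9 (15.0% against 11%), CACCTG in 9 (15.0% against 12.7%), CATTCC in 4 (6.67% against 8.54%), TGANTCA (AP-1) in 3 (5.00% against 6.45%), and TCAGGTT (MEF3) and the CArG box in 1 each (1.67% against 2.06% and 0.673%). In the RefSeq promoters of the 7 genes that had one, 1 pair of different matches overlapped, MEF3 with MEF2 at the inner start of Synpo2l.

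**Figure D5:**
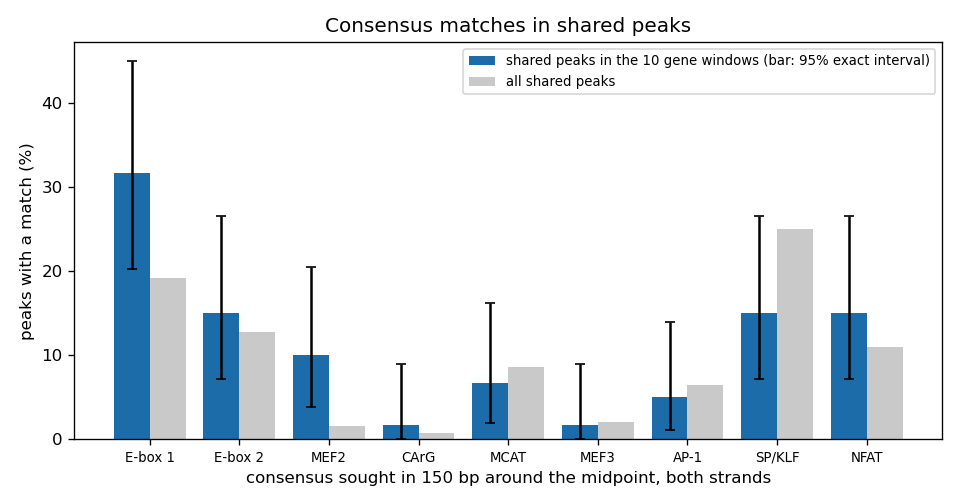
Bars give the percentage of shared peaks with a match in 150 bp, in blue for the 60 peaks in the windows of the 10 genes with exact 95% intervals and in grey for all 49160 shared peaks; E-box 1 is CAGCTG and E-box 2 CACCTG. MEF2 shows the widest relative gap, 10% against 1.5%, and the SP/KLF bar is the lower of its pair.

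A wider list of 37 genes of the Z-disc and of mechanical or protein stress was examined alongside. All 37 had a promoter peak in both libraries, as did 60.0% of protein-coding genes. They had a median of 5 shared peaks per window, from 1 to 15, and 0.889 per 10 kb, beside 5.5 and 1.40 for the 10 genes and 2 and 0.325 for all protein-coding genes. The densest were Fhl3, a LIM protein gene, at 5.02 per 10 kb, Ankrd23 at 4.12 and Myoz3, a calsarcin gene, at 3.15. Relatives of the 10 genes differed among themselves. Ankrd23, a titin-binding relative of Ankrd2, had 11 shared peaks. Of these, 3 were at its own promoter, 5 were distal and the rest lay at promoters of neighbours. Ankrd1, the cardiac member of that family, had 1, at percentiles 66.3 and 89.4. Csrp1 had 5 and Csrp2 had 1, the same number as Csrp3, but the promoter peak of Csrp2 was stronger, at 79.5 and 96.5. Synpo2, the relative of Synpo2l, had 15.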

How the data were processed

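DNase-seq libraries from 2 gastrocnemius biosamples were analysed. Per the READMEs deposited with each library, the authors called peaks and footprints separately per library from filtered alignments, on mm10 per the labels. No aligner or caller is named in the sources used here. The deposited peak lists carry a signal value of unstated scale, used only for ranks within a list. The deposited footprint files carry a p-value of 0.01 in every row, and the deposited cut-rate files list segments with a p-value column, read as a false discovery rate below 0.05. Of the 2 deposited lists per library, the longer was used.

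Peaks overlapping by at least 1 bp, or touching, were merged into shared peaks. The width of a shared peak is that of the merged stretch, and its signal is that of the strongest peak of each library in it. Positions came from midpoints and GENCODE M21. Motifs were sought on both strands of GRCm38 (pysam 0.24.0), and promoter sequences came from RefSeq, with 7 of 10 genes matched. Python 3.11.15, pandas 2.3.3 and scipy 1.17.1 were used, and the overlap and promoter calls were tested on simulated data. The 10 genes, the gene lists and the motifs were chosen with earlier results of these data known. All 10 genes were named, with the wider list's 3 densest genes and the relatives. Alternatives were another promoter width, flank, peak list, signal limit, overlap, motif window and start set, and each library left out.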

Additional observations from a re-analysis of the deposited data

How the results depend on the processing

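The count of genes with a promoter peak in both libraries was 10 under every setting tried except 2: the shorter list gave 8, and the upper 50% of each list gave 9, without Csrp3. The shares of all protein-coding genes under these 2 settings are not given here. The 60 shared peaks became 28 with no flank, 112 with a flank of 50 kb and 39 with the shorter list, and a single library had 77 or 209 peaks. The 29 distal ones became 18, 53 and 17 under the same 3 settings, and 40 or 151 in a single library. The median of all shared peaks per 10 kb, 1.40, became 0.889, 0.949 and 0.679 under these settings, and 1.81 or 2.40 in a single library. The median over all protein-coding genes, 0.325, holds for the main setting only, so these values cannot be set against it. The share of replicate 2 peaks that overlapped, 31.6%, was 25% with the shorter list and 65.6% with equal numbers of the strongest peaks. The median percentile of the strongest promoter peak was 78.9 with a promoter of 500 bp and 76.9 in the upper 50% for replicate 1. For replicate 2 it was 88.4 with the shorter list, 75.7 with equal numbers and 87.5 in the upper 50%. The share of replicate 1 footprints that overlapped was 30.9% with no flank, 49.4% with 50 kb and 20.7% after the move of 50 bp. The causes were not tested, apart from the settings' own construction (fewer peaks or other lengths). Of the other recomputed values for these results 54 kept within their limits, as did 58 of 89 values for single genes and motifs. Main starts only, chosen after seeing the data, left 10 genes and both medians as they were and 34 of the 37 further genes. Of all protein-coding genes 54.9% had a peak there in both libraries.

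No paired analysis was possible because both libraries form 1 group. The read depth is unknown here, and replicate 2 has 3.86 times as many peaks. What this adds to its 60 further peaks at Ldb3 was not tested. The number of shared peaks moved with the flank, though not at Smyd1, which had 6 with each flank.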

Other observations

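Peaks found in a single library were not all weak. In the windows of the 10 genes the highest such peak of replicate 2, at percentile 90.2, lay 2.85 kb into Ldb3 and had a signal of 1.83. Others stood downstream of Xirp1, next to the strongest distal peak of its window, and 5.6 kb upstream of Synpo2l (each 1.57, percentile 88.6). In Myot one lay 4.03 kb into the gene (1.53, percentile 88.3). In replicate 1 the highest lay near the start of Speg in the window of Des (1.35, percentile 74.7). Another lay 243 bp inside Ldb3 (1.18, percentile 70.3).

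Among the neighbours whose promoters fell in the windows, Myoz1, whose protein calsarcin binds calcineurin at the Z-disc, had 8 shared peaks in its own window and a promoter percentile of 93.8 in replicate 1 and 97.0 in replicate 2. Its window and that of Synpo2l overlap, so these peaks are partly the same ones.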
